A study of Mus musculus with 12 samples.

Results

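The genes described here are the Eph receptors, their ephrin ligands, the netrins and the netrin receptors, taken as every array probe whose gene name in the scanner files was an Eph receptor (Epha or Ephb), an ephrin (Efna or Efnb), a netrin (Ntn or Ntng), an Unc5 receptor, Dcc or Neo1. The rule found 47 of the 55681 non-control probes, for 34 genes. They are 9 EphA and 5 EphB receptors, 5 ephrin-A and 3 ephrin-B ligands, 4 secreted netrins (Ntn1, Ntn3, Ntn4 and Ntn5), 2 netrin-G ligands and 6 netrin receptors (Dcc, Neo1 and Unc5a to Unc5d). Of these 34 genes 33 were tested in the cultures. The exception was Ntn5, whose only probe was well above background on 0 of 8 culture arrays. RNA was measured on single-colour arrays in neurons made from mouse embryonic stem cells (129/Ola background, male, 2 arrays per group, day 16 of differentiation) and in 4 tissues of E15 Sv129s6 embryos of mixed sex (midbrain, ventral telencephalon, hippocampus and cortex, 1 array each).

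All 4 culture groups received the WNT inhibitor 53AH at 2.5 µM and the BMP inhibitor LDN193189 at 0.25 µM from day 0. In CHIR_8-16 the inhibitors were followed by the WNT agonist CHIR, a GSK3 inhibitor, from day 8 to day 16 (3 µM), while summing the intervals in the culture protocol puts the switch 1 day earlier. In CHIR_11-16 the agonist was given from day 11 to day 16, at a dose the labels do not give. WiBi_0-16 had the inhibitors to day 16 and WiBi_0-11 to day 11, with no agonist in either. The labels call the cultures with agonist from day 8 hippocampal and WiBi_0-11 isocortical, and each sample is a pool of RNA from 3 sets of experiments.

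Eph receptors are receptor tyrosine kinases that bind ephrins on the surface of neighbouring cells. EphA receptors mostly bind ephrin-A ligands, which are held in the membrane by a lipid anchor, and EphB receptors mostly bind the transmembrane ephrin-B ligands, with signalling into both cells and, often, repulsion of the growing axon. Netrins are laminin-related proteins that attract axons through Dcc and repel them through Unc5 receptors, while netrin-G proteins are membrane-bound and act at synapses. In the embryonic brain these genes are known for sorting axons and cells between regions, including the topographic projections of the cortex and hippocampus.

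Values are the log2 processed signal of a probe minus the 75th percentile of its array, so that 0 is the brightness of the 75th percentile spot, and the brightest passing probe stood for a gene. On each array 59.06% to 71.18% of spots stood well above background. All 10 neuronal markers (such as Tubb3, Stmn2 and Dcx) and all 11 pallial markers were well above background on every culture array. So were 10 of the 11 ventral telencephalic and GABAergic markers, while the remaining one, Nkx2-1, was not on any. On the culture arrays 7 to 9 of 10 midbrain and isthmus markers and 4 of 5 floor plate markers also passed. Detection alone does not tell regions apart, since 10 of 11 pallial markers passed in E15 midbrain. The summed pallial level, in units of the 75th percentile, was 70.77 to 92.95 in the cultures. It was 343.1 in E15 cortex, 231.2 in E15 hippocampus and 13.02 in E15 midbrain. In every culture group slide 2 holds replicate 1 and slide 3 holds replicate 2, so that each comparison was fitted with and without slide as a block. Calls use a two-sided limma p below 0.05 after Benjamini-Hochberg adjustment across 25539 genes. With 2 arrays per group the number of arrays limits the precision. A p-value here reflects no more than the scatter among these samples, and that scatter may be technical.

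The cultures given the agonist (CHIR_8-16 and CHIR_11-16, 4 arrays) were set against those given only the inhibitors (WiBi_0-16 and WiBi_0-11, 4 arrays). The inhibitors ended on days 8 and 11 in the former and on days 16 and 11 in the latter. This comparison therefore does not separate the agonist from the length of inhibition. The ligand Efna1 and the receptor Epha3, an ephrin-A and an EphA gene, were higher with the agonist in the fit with slide as a block, the first by 2.08-fold. No member was called in the fit without it (limma, 0 of 33, against 0.00783% of all genes), where 7 members had an unadjusted p under 0.05 against 15.3% of all genes. With the block 2 of 33 members were called, both higher, against 3.21% of all genes called and 1.87% called higher (1.34% were called lower). Over all members 18 of 33 had a positive and 15 a negative difference, with a median log2 difference of 0.00842, beside 0.00094 for all genes.

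Efna1 encodes ephrin-A1, a ligand of several EphA receptors (probe at mm9 chr3:89075703-89075762, minus strand). It measured -2.49 and -2.60 in CHIR_8-16 and -3.24 and -2.83 in CHIR_11-16, against -3.75 and -4.07 in WiBi_0-16 and -4.07 and -3.50 in WiBi_0-11 (log2, replicates 1 and 2). Every agonist array lay above every inhibitor-only array. The log2 difference was 1.06 (SE 0.209, limma adjusted p = 0.0888 without the block, and SE 0.205, adjusted p = 0.0471 with it), and it was 1.04 within slide 2 and 1.07 within slide 3.

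Epha3 encodes a receptor that ephrin-A ligands activate (probe at mm9 chr16:63545155-63545214, minus strand). Its values were 1.89 and 1.70 in CHIR_8-16 and 2.07 and 1.97 in CHIR_11-16, against 1.33 and 1.19 in WiBi_0-16 and 1.42 and 1.37 in WiBi_0-11. The groups did not overlap here either, and both slides gave a like difference (0.61 on slide 2 and 0.55 on slide 3). The log2 difference was 0.58 (SE 0.124, limma adjusted p = 0.0965 without the block, and SE 0.108, adjusted p = 0.0457 with it). Both calls were lost when any 1 of the 8 arrays was left out of the blocked fit (limma, 0 members called each time), while the log2 differences stayed between 0.91 and 1.21 for Efna1 and between 0.53 and 0.64 for Epha3.

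**Figure D1:**
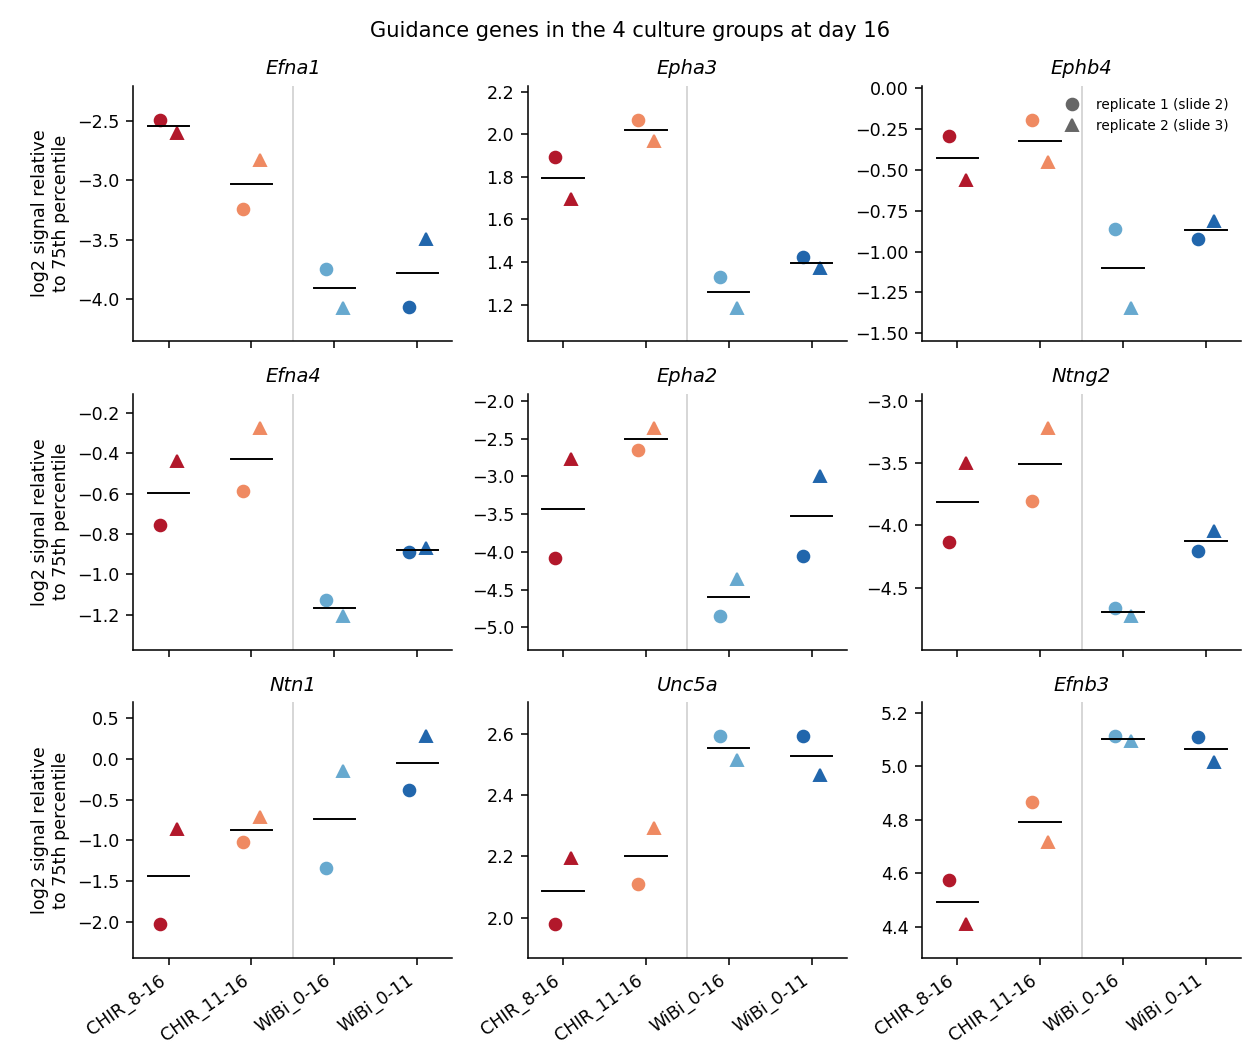
Log2 signal relative to the 75th percentile of the array (y axis) of 9 members in the 4 culture groups (x axis), with circles for replicate 1 on slide 2, triangles for replicate 2 on slide 3 and bars for the mean of 2 arrays. Efna1 lies between -3.24 and -2.49 on the 4 agonist arrays (left of the grey line) and between -4.07 and -3.50 on the 4 inhibitor-only arrays.

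Ephb4, a receptor of ephrin-B2, measured -0.29 and -0.56 in CHIR_8-16 and -0.19 and -0.45 in CHIR_11-16, against -0.86 and -1.34 in WiBi_0-16 and -0.92 and -0.81 in WiBi_0-11. The 4 agonist arrays lay above the 4 others, and the log2 difference of 0.61 (SE 0.131) had a limma adjusted p of 0.0529 with the block, just outside the threshold. The other Ephb4 probe gave 0.27 (limma adjusted p = 0.325 with the block, over 36430 probes). Epha2, a receptor of ephrin-A1, had a difference as large as that of Efna1 (log2 1.10, SE 0.407, limma adjusted p = 0.165 with the block) but overlapping groups. It measured -4.08 and -2.77 in CHIR_8-16 and -2.65 and -2.35 in CHIR_11-16, against -4.85 and -4.36 in WiBi_0-16 and -4.06 and -3.0 in WiBi_0-11.

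Among the 5 ephrin-A ligands 4 had a positive difference with the agonist. With the block 1 of the 5 was called, against 3.21% of all genes. Efna4 was the next after Efna1, at -0.76 and -0.44 in CHIR_8-16 and -0.59 and -0.27 in CHIR_11-16, against -1.12 and -1.21 in WiBi_0-16 and -0.89 and -0.87 in WiBi_0-11 (log2 difference 0.51, limma adjusted p = 0.0788 with the block). Efna1, Efna3 and Efna4 are neighbours on chromosome 3, and Efna3, which lies between the other two, differed by 0.01 (its other passing probe gave -0.41). Of the ephrin-B ligands, Efnb3 was lower on all 4 agonist arrays, at 4.58 and 4.41 in CHIR_8-16 and 4.87 and 4.71 in CHIR_11-16, against 5.11 and 5.09 in WiBi_0-16 and 5.11 and 5.02 in WiBi_0-11 (log2 -0.44, limma adjusted p = 0.0759 with the block).

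On the netrin side 0 of 11 tested members were called with the agonist, against 3.21% of all genes with the block and 0.00783% without. So few members cannot be set apart from that share. Unc5a, a netrin receptor of repelled axons, measured 1.98 and 2.19 in CHIR_8-16 and 2.11 and 2.29 in CHIR_11-16, against 2.59 and 2.52 in WiBi_0-16 and 2.59 and 2.46 in WiBi_0-11. Its groups did not overlap (log2 -0.40, SE 0.103, limma adjusted p = 0.0760 with the block). The 6 netrin receptors had a median of -0.27 with 5 of 6 negative, and the 3 netrins a median of -0.40 with 3 of 3 negative. Ntng2, a netrin-G ligand, had a difference of 0.75 (limma adjusted p = 0.0953 with the block). In all, the agonist and inhibitor-only arrays did not overlap for 6 of 33 members, against 12.3% of all genes. At least 2-fold with the same sign on both slides were 2 members, Efna1 and Epha2, against 3.11% of all genes.

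**Figure D2:**
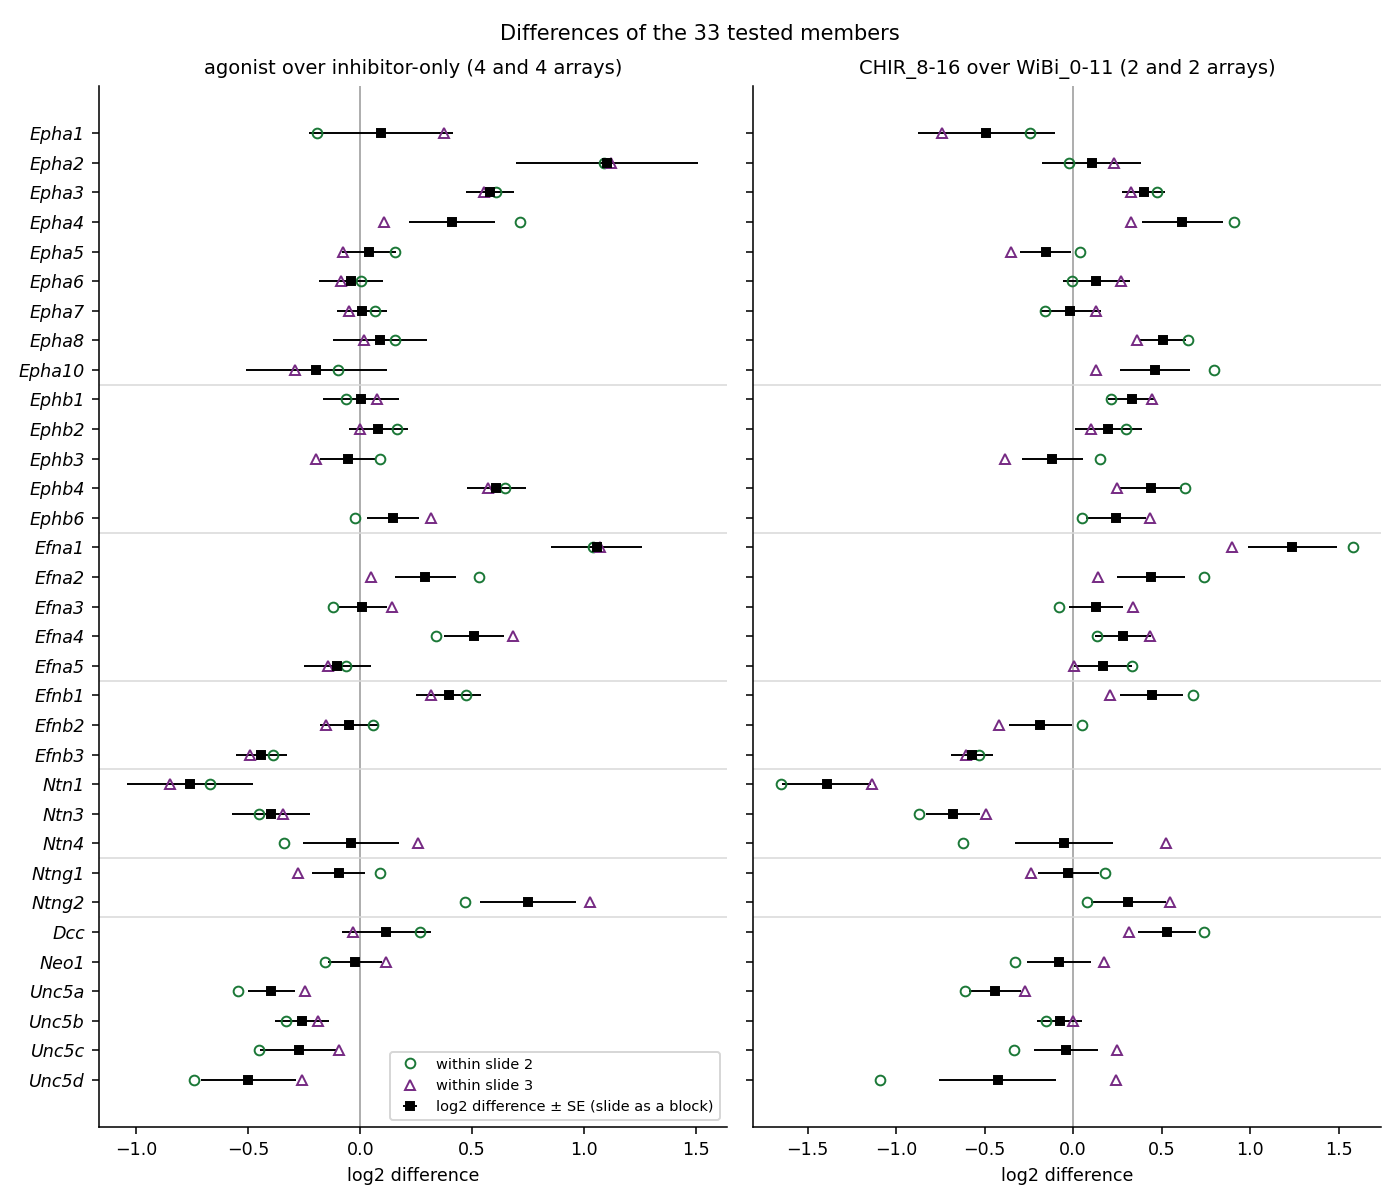
Log2 difference (x axis) of the 33 tested members (y axis, ordered by family with grey lines between families) with agonist over inhibitor-only cultures on the left and CHIR_8-16 over WiBi_0-11 on the right. Squares with bars are the fitted difference and its SE with slide as a block, circles and triangles the differences within slide 2 and slide 3. Efna1 (1.06), Epha3 (0.58) and Ephb4 (0.61) have close values on both slides in the left panel, and Ntn1 (-1.39) and Efna1 (1.24) lie farthest from 0 in the right panel.

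The 250 bases before each RefSeq transcription start (GRCm38.p6) of Efna1, Epha2 and Epha3 are shown because these are the 2 called members and the member with the largest difference with the agonist, and because the agonist acts through beta-catenin and TCF/LEF factors. They were chosen after their values were seen. The letters CTTTGA, the core of the TCF/LEF motif, were searched on both strands (TCAAAG on the other), and matches are in capitals. Efna1 has 2 starts, at chr3:89280952-89281201 and chr3:89279646-89279895 for the stretches shown (minus strand), Epha2 is at chr4:141300971-141301220 (plus strand) and Epha3 at chr16:63864176-63864425 (minus strand).
Efna1 promoter 1: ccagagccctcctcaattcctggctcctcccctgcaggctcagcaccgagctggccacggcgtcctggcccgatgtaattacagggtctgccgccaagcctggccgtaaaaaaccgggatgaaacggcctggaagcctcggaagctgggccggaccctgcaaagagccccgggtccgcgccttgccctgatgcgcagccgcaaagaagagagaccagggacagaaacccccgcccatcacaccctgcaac
Efna1 promoter 2: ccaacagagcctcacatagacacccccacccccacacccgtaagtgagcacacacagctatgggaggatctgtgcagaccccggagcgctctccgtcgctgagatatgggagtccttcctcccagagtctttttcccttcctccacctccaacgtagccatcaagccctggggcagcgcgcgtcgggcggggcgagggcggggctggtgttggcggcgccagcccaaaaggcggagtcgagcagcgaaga
Epha2 promoter: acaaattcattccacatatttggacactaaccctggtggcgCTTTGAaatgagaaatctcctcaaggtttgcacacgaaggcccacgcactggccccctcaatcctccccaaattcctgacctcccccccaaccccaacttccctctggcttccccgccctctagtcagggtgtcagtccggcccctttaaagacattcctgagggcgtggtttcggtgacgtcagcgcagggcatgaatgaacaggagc
Epha3 promoter: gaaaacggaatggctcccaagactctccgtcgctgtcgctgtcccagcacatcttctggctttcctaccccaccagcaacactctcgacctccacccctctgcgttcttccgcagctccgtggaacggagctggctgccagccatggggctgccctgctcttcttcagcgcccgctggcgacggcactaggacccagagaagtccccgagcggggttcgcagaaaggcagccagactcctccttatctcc
The Epha2 stretch holds 1 match, 209 bases before the start, and the other 3 stretches hold none. Promoters in the table matched 30 of the 34 genes (33 starts), and the Epha2 match was the only one among the 33, or 3.0% of member promoters against 13.8% of all 32851 promoters of the same length. A match is a description of letters and not a site, and a window without one says nothing about the factor.

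CHIR_8-16 was compared with WiBi_0-11 to set the cultures that the labels call hippocampal against the isocortical ones. The inhibitors ended on day 8 in CHIR_8-16 and on day 11 in WiBi_0-11, so the agonist and the shorter inhibition cannot be told apart here. On average netrin-1 was 2.62-fold lower and ephrin-A1 2.36-fold higher in CHIR_8-16, but 0 of 33 members were called (limma, against 0.0117% of all genes, and 0.309% with the block). An unadjusted p under 0.05 was found for 5 members (9.62% of all genes) and, with the block, for 11 (22.1%). At least 2-fold with the same sign on both slides were 2 of 33 members, against 5.78% of all genes. The median log2 difference was 0.13, beside 0.05 for all genes, with 18 members positive and 15 negative.

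Ntn1 encodes netrin-1, the main secreted netrin of the brain (probe at mm9 chr11:68022986-68023045, minus strand). It measured -2.03 and -0.86 in CHIR_8-16, against -0.38 and 0.28 in WiBi_0-11, with -1.03 and -0.72 in CHIR_11-16 and -1.34 and -0.15 in WiBi_0-16. CHIR_8-16 and WiBi_0-11 did not overlap, and the difference was -1.65 within slide 2 and -1.14 within slide 3. The fitted log2 difference was -1.39 (SE 0.552, limma adjusted p = 0.513 without the block, and SE 0.252, adjusted p = 0.0882 with it). In the fit without the block it was -0.81 without CHIR_8-16 replicate 1 and -1.98 without CHIR_8-16 replicate 2. With 1 array left out the slides are unbalanced, so these values also carry the difference between slides. The other Ntn1 probe was well above background on 0 of 2 CHIR_8-16 arrays and 1 of 2 WiBi_0-11 arrays.

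Efna1 had a log2 difference of 1.24 in this comparison (SE 0.271, limma adjusted p = 0.291 without the block, and SE 0.251, adjusted p = 0.101 with it; 0.57 after normexp correction and quantile normalization). By the brightest probes all 5 ephrin-A ligands were positive, with a median of 0.28. Among them Efna3 (0.13) was -0.08 within slide 2, and its other passing probe gave -0.46. EphA4, which binds both ephrin classes, followed Efna1: Epha4 measured 0.84 and 0.79 in CHIR_8-16, against -0.07 and 0.46 in WiBi_0-11 (log2 0.62, limma adjusted p = 0.205 with the block). Members with negative differences besides Ntn1 included Ntn3, another secreted netrin (log2 -0.68, limma adjusted p = 0.111 with the block), Efnb3 (-0.57, 0.105) and Unc5a (-0.44, 0.181). Groups did not overlap for 13 of 33 members, against 35.6% of all genes. In 9 of them CHIR_8-16 was the higher group (17.7% of all genes) and in 4 the lower (17.9%).

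Markers of other cells moved with this comparison. Of the 11 ventral telencephalic and GABAergic markers 10 were tested, with a median log2 difference of -2.57 (9 of 10 negative, 2 called lower with the block). Their summed level, in units of the 75th percentile, was 12.41 to 27.76 in CHIR_8-16 and 33.58 to 39.14 in WiBi_0-11. The 4 tested floor plate markers, from a tissue that makes netrin-1, had a median of -1.40 (3 of 4 negative, 0 called), with a summed level of 1.133 to 1.254 in CHIR_8-16 and 1.952 to 2.359 in WiBi_0-11. The 8 oligodendrocyte lineage markers had a median of -1.90 (7 of 8 negative, 3 called lower with the block). Their summed level was not lower, at 65.97 to 216.5 in CHIR_8-16 and 61.49 to 87.39 in WiBi_0-11. The 8 mesenchyme markers had a median of -1.61 (6 of 8 negative, 1 called lower with the block), with a summed level of 2.699 to 5.495 in CHIR_8-16 and 13.07 to 13.38 in WiBi_0-11. The part of these cells in the differences of Ntn1, Unc5a and Efnb3 was not tested, and in bulk RNA fewer cells of a type and less RNA per cell cannot be told apart. In the agonist comparison the same lists had medians of -1.24, -0.56, -1.28 and -0.59, while the 5 tested endothelial, blood and microglial markers had a median of -0.04. The midbrain and isthmus markers (8 tested, 6 positive, 0 called) and the progenitor markers (10 tested, 8 positive, 0 called) had medians of 0.86 and 0.39 with the agonist, and their part in the differences of Efna1 and Epha3 was not tested.

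The remaining pairs of culture groups had 0 of 33 members called with and without the block (limma). In WiBi_0-16 over WiBi_0-11 0.0117% of all genes were called with the block and 0% without, and in CHIR_8-16 over CHIR_11-16 0.00783% with it and 0% without. In CHIR_11-16 over WiBi_0-11 no gene at all was called without the block and 0.0117% of genes with it, 2 members had an unadjusted p under 0.05 (4.7% of all genes), and 10 did with the block (12.5%). In both groups of this pair the inhibitors ended on day 11. Efna1 differed by a log2 of 0.75 and Epha3 by 0.62 (limma adjusted p = 0.386 and 0.297 with the block, over 36430 probes). In the same pair the 2-fold rule was met by 1 member. Epha2 was the only member at least 2-fold apart with the same sign on both slides, against 2.51% of all genes (log2 1.03, 1.42 within slide 2 and 0.64 within slide 3, limma adjusted p = 0.319 with the block). In WiBi_0-16 over WiBi_0-11 it was again Epha2, lower by a log2 of -1.07 (-0.79 within slide 2 and -1.36 within slide 3, limma adjusted p = 0.403 with the block), as the only member past 2-fold on that rule against 2.67% of all genes. There were 0 members at an unadjusted p under 0.05 (2.62% of all genes) and 3 with the block (10.8%). In the fit without the block neither Epha2 difference changed sign with any 1 array left out, but both changed in size. Without WiBi_0-11 replicate 1 they were 0.50 for CHIR_11-16 and -1.60 for WiBi_0-16, and without WiBi_0-11 replicate 2 they were 1.56 and -0.54. Leaving out 1 array unbalances the slides, between which Epha2 also differed. The part of the single array and that of the slide cannot be told apart in these values. These comparisons share the WiBi_0-11 arrays.

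CHIR_8-16 against CHIR_11-16 asks what the earlier start of the agonist goes with, although the dose in CHIR_11-16 is not given. The inhibitors also ended earlier in CHIR_8-16 (day 8) than in CHIR_11-16 (day 11), so that the start of the agonist and the length of inhibition cannot be told apart. An unadjusted p under 0.05 was found for 3 members (3.82% of all genes) and, with the block, for 7 (11.6%). Epha8, an EphA receptor known in the midbrain, measured 1.79 and 1.90 in CHIR_8-16, against 0.95 and 1.30 in CHIR_11-16 (log2 0.72, limma adjusted p = 0.216 with the block). Ephb1, a receptor of ephrin-B ligands, measured 2.64 and 2.87 in CHIR_8-16, against 2.20 and 2.23 in CHIR_11-16 (log2 0.54, limma adjusted p = 0.288 with the block). Epha10, a receptor whose kinase domain is thought to be inactive, was 2.12-fold higher (log2 1.08, limma adjusted p = 0.208 with the block), at -0.66 and -2.35 in CHIR_8-16, against -1.93 and -3.24 in CHIR_11-16. Epha10 was the only member at least 2-fold apart with the same sign on both slides (3.69% of all genes). Its groups overlapped, since its 2 replicates lay further apart than the groups. In the fit without the block the log2 difference was 0.23 without CHIR_8-16 replicate 1 and 1.93 without CHIR_8-16 replicate 2. It was 1.74 without CHIR_11-16 replicate 1 and 0.43 without CHIR_11-16 replicate 2. With 1 array left out the slides are unbalanced, so these values also carry the difference between slides. The F test over the 4 groups called 0 of 33 members with and without the block (limma, against 0.0548% and 0% of all genes), with an unadjusted p under 0.05 for 13 members (22.9% of all genes) and 7 members (8.86%).

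Epha7, an EphA receptor with a full-length form and a short form that lacks the kinase domain, gave different values by probe. The brightest probe, A_52_P504787 (mm9 chr4:28891069-28891128, annotated to transcript variant 1), is shown with the other probes, A_55_P1969058 (chr4:28869764-28869823) and A_52_P306236 (chr4:28873570-28873629, its first 30 bases), both annotated to transcript variant 2 and on the plus strand. They are shown because they read different parts of 1 gene.
Epha7 probe A_52_P504787: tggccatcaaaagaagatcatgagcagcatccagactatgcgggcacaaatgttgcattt
Epha7 probe A_55_P1969058: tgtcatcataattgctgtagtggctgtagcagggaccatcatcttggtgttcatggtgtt
Epha7 probe A_52_P306236: cagttaggctgcagtgtaaatatataaaga
Whether a probe reads only the variant it is annotated to was not checked. A_52_P504787 was flat across the cultures, at 0.68 and 0.90 in CHIR_8-16, against 0.84 and 0.77 in WiBi_0-11 (log2 difference -0.02). By A_55_P1969058 the values were -0.68 and -0.04 in CHIR_8-16, against 0.30 and 0.37 in WiBi_0-11 (log2 -0.69, limma adjusted p = 0.170 with the block, over 36430 probes). By A_52_P306236 they were -1.68 and -0.31 in CHIR_8-16, against -0.25 and 0.18 in WiBi_0-11 (log2 -0.96, limma adjusted p = 0.164 with the block). Among the E15 tissues A_55_P1969058 and A_52_P306236 were highest in the ventral telencephalon, at 0.03 and 0.06, against -1.0 and -1.28 in cortex and -0.93 and -1.58 in hippocampus. The difference between the probes was not tested.

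Dcc, the netrin receptor of attracted axons, also had 3 probes that disagreed. The brightest, A_55_P1961761, is placed on chromosome 7 in the files (mm9 chr7:68417162-68417221) although RefSeq has Dcc on chromosome 18. Its 60 bases hold 17 GAA units in a row (51 bases), and 59 of its bases are A or G. It lay between 6.32 and 8.69 on all 12 arrays, and it is the value of Dcc wherever the brightest probe was used. The other 2 probes, A_55_P2021744 and A_65_P07978, are placed on chromosome 18.

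By A_55_P2021744 Dcc measured 0.07 and -0.79 in CHIR_8-16, against -1.83 and -2.16 in WiBi_0-11, with -1.40 and -1.90 in CHIR_11-16 and -0.83 and -1.81 in WiBi_0-16. By A_65_P07978 it measured -3.23 and -3.07 in CHIR_8-16, against -4.40 and -4.81 in WiBi_0-11, with -3.99 and -4.60 in CHIR_11-16 and -3.66 and -3.69 in WiBi_0-16. By both probes the 2 CHIR_8-16 arrays were above the other 6 culture arrays. The log2 difference of CHIR_8-16 over WiBi_0-11 was 1.63 by the first (SE 0.446, limma adjusted p = 0.375 without the block, and SE 0.199, adjusted p = 0.0566 with it). It was 1.46 by the second (SE 0.266, limma adjusted p = 0.238 without the block, and SE 0.220, adjusted p = 0.0686 with it). By the repeat probe it was 0.53 (SE 0.164, limma adjusted p = 0.165 with the block). The choice of these probes was made after their values were seen.

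**Figure D3:**
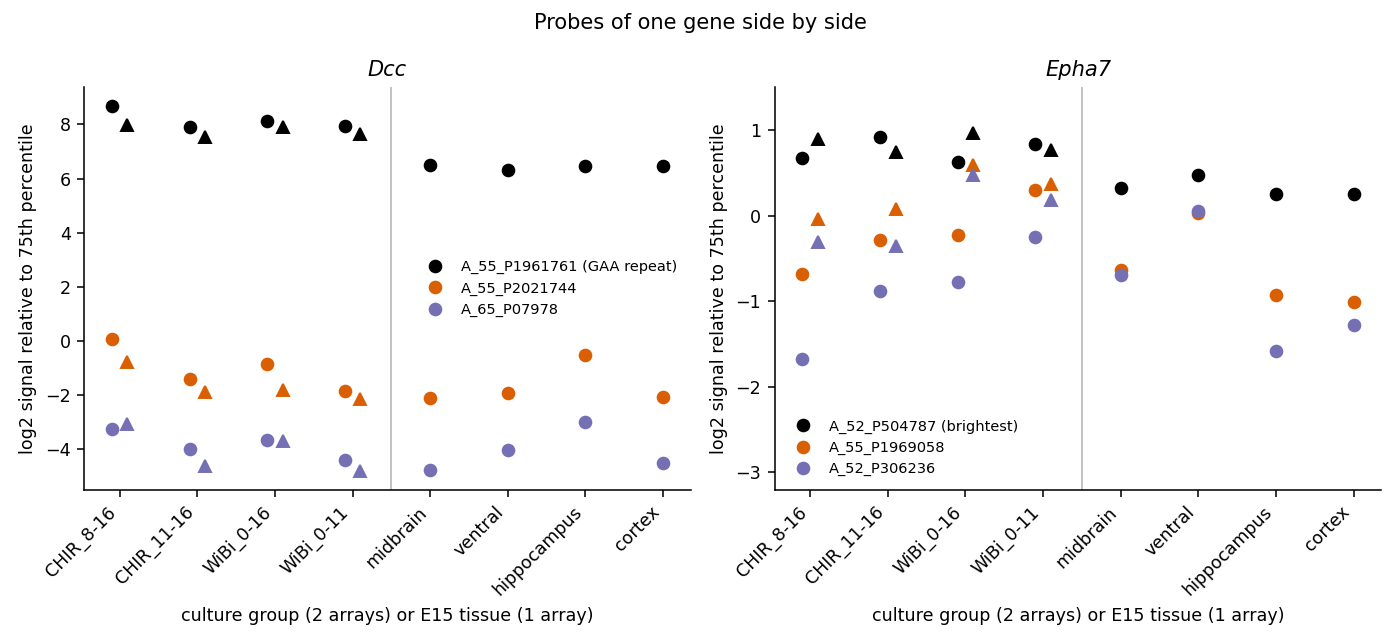
Log2 signal relative to the 75th percentile of the array (y axis) of each Dcc probe (left) and each Epha7 probe (right) in the 4 culture groups (circles for replicate 1, triangles for replicate 2) and the 4 E15 tissues (1 array each). The 2 Dcc probes on chromosome 18 are highest in CHIR_8-16 among the cultures and in hippocampus among the tissues, while the GAA repeat probe is between 6.32 and 6.49 in every tissue.

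The members not yet described are given by their range over the 8 culture arrays. Neo1 lay between 1.77 and 2.21, Epha6 between -4.82 and -4.38, and Ephb6, an EphB receptor whose kinase is inactive, between 2.05 and 2.52. Ephb3, another ephrin-B receptor, lay between 4.00 and 4.70 and Efnb2, the ligand of Ephb4, between 3.25 and 3.83. Dim members were Ntn4, a netrin of basement membranes (-4.32 to -3.40), and Unc5d, which was well above background on 4 of 8 arrays.

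More members were called between the slides than between any pair of groups, but the slides compare 4 arrays with 4 and the pairs 2 with 2. Slide and replicate cannot be told apart, since each slide holds 1 replicate of every culture group. Between slide 3 (replicate 2) and slide 2 (replicate 1) 14 of 33 members were called, 6 higher and 8 lower on slide 3 (limma, against 34.4% of all genes, 24.3% higher and 10.1% lower). Epha10 had the lowest adjusted p among the members. Higher on slide 3 were Epha1, Ntn1 (0.83), Epha2 (0.79), Ephb2, Efna3 and Epha5. Leaving out any 1 array lowered the count to between 6 and 8. Epha10, Epha2 and Ntn1, which have some of the larger differences between groups, are thus also among those that differed between slides.

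The arrays of slide 3 and slide 2 did not overlap for 11 of 33 members, against 30% of all genes. Of these members 5 were higher on slide 3 (21.2% of all genes) and 6 lower (8.77%). The slide values follow in the group order CHIR_8-16, CHIR_11-16, WiBi_0-16 and WiBi_0-11. Epha10, the receptor described above, measured -2.35, -3.24, -2.53 and -2.48 on slide 3, against -0.66, -1.93, -0.94 and -1.45 on slide 2 (log2 -1.41, limma adjusted p = 0.00396). Unc5b, a netrin receptor also known in blood vessels, measured 1.69, 1.42, 1.80 and 1.69 on slide 3, against 2.41, 2.05, 2.56 and 2.56 on slide 2 (log2 -0.74, limma adjusted p = 0.00509). Ntng1, the netrin-G1 ligand, measured 1.92, 1.87, 2.19 and 2.15 on slide 3, against 2.91, 2.63, 2.64 and 2.73 on slide 2 (log2 -0.69, limma adjusted p = 0.0114). By these values no array of slide 3 reached any array of slide 2 in Epha10, Unc5b and Ntng1. The other passing Ntng1 probes, however, differed little between slides (log2 -0.09 and -0.01). Epha1, the dimmest of the members called, measured -4.69, -3.62, -5.11 and -3.95 on slide 3, against -5.50, -5.62, -5.48 and -5.26 on slide 2 (log2 1.12, limma adjusted p = 0.0297). Efna3, an ephrin-A ligand, measured -0.34, -0.50, -0.44 and -0.67 on slide 3, against -1.25, -1.36, -1.19 and -1.17 on slide 2 (log2 0.76, limma adjusted p = 0.00683, and log2 0.67 by its other passing probe). Ephb2, a receptor of ephrin-B ligands, measured -0.41, -0.36, -0.26 and -0.51 on slide 3, against -0.86, -1.31, -1.34 and -1.16 on slide 2 (log2 0.79, limma adjusted p = 0.0106). All 4 arrays of slide 3 lay above all 4 of slide 2 for each of these 3. Epha5, a receptor of ephrin-A ligands, measured 3.33, 3.62, 3.43 and 3.68 on slide 3, against 3.14, 3.27, 3.00 and 3.1 on slide 2 (log2 0.39, limma adjusted p = 0.0361, but log2 0.0023 by its other passing probe). Efna2, an ephrin-A ligand, measured 0.09, 0.03, 0.06 and -0.04 on slide 3, against 0.84, 0.74, 0.41 and 0.10 on slide 2 (log2 -0.49, limma adjusted p = 0.0433). Efna5, another ephrin-A ligand, measured 1.55, 1.16, 1.45 and 1.55 on slide 3, against 2.02, 1.66, 2.11 and 1.69 on slide 2 (log2 -0.45, limma adjusted p = 0.0352). The last 2 had values on slide 3 below those of the same group on slide 2 throughout. Efnb1, an ephrin-B ligand, measured 4.44, 4.45, 4.02 and 4.23 on slide 3, against 5.32, 4.75, 4.49 and 4.64 on slide 2 (log2 -0.52, limma adjusted p = 0.0292). Unc5c, a netrin receptor, measured 0.48, -0.20, 0.23 and 0.23 on slide 3, against 0.62, 0.34, 0.92 and 0.95 on slide 2 (log2 -0.53, limma adjusted p = 0.0296, and log2 -0.35 by its other passing probe). Dcc, by its repeat probe, was the remaining member lower on slide 3 (log2 -0.42, and -0.67 and -0.22 by its other probes).

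In the E15 tissues 33 members were measured, all except Epha1, which lacked a usable spot in cortex. With 1 array per tissue there is no test, and a fold here compares those arrays. Between the highest and lowest tissue 17 of 33 members were at least 2-fold apart, against 36% of all genes. Of these 17 members 6 were highest in midbrain, 6 in hippocampus, 5 in cortex and none in ventral telencephalon. The midbrain and ventral marker lists were highest in the tissues of their names. The summed level of the midbrain list was 52.93 in midbrain and 0.6176 to 2.93 in the other 3 tissues. That of the ventral list was 67.53 in ventral telencephalon and 20.2 to 27.41 elsewhere. The pallial list had one of 343.1 in cortex, 231.2 in hippocampus, 186.4 in ventral telencephalon and 13.02 in midbrain. It set midbrain apart, but ventral telencephalon much less so.

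In midbrain 11 of 33 members were past 2-fold from the mean of the 3 telencephalic tissues (6 higher and 5 lower, against 14.8% of all genes, 11.7% higher and 3.08% lower). Epha10 was among the higher, at -1.40 in midbrain and -3.90 in ventral telencephalon, a 5.63-fold difference between those arrays, and was not well above background in hippocampus or cortex. Ntng1, by its brightest probe, was 6.14-fold higher in midbrain, at 3.23, against 1.74 in ventral telencephalon, -0.47 in hippocampus and 0.57 in cortex. This probe is annotated to a cDNA clone of a hypothetical protein, and the other passing Ntng1 probes to netrin-G1 transcript variant a. Of those, A_55_P1989341 was well above background on 4 E15 arrays and A_52_P305658 on 1, and their tissue values are not given. The same holds for the Ntng1 folds below. Efna5, an ephrin-A known for its gradient in the midbrain tectum, was 4.49-fold higher. It measured 2.81, against 1.31 in ventral telencephalon, 0.22 in hippocampus and 0.40 in cortex. Epha8 was 3.79-fold higher, at 2.67, against 1.99, 0.72 and -0.47. Unc5c was 3.79-fold higher, at 0.80, against 0.02, -2.58 and -0.80, and Ntn1 was 6.03-fold higher, at 1.47. The floor plate markers, of which 5 of 5 were well above background in midbrain, had a summed level of 5.686 there, 1.162 in ventral telencephalon (3 of 5) and 0.1241 to 0.2136 in hippocampus and cortex (1 of 5 each). The mesenchyme markers had one of 47.14 in midbrain, and the part of either list in these folds was not tested.

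Lower in midbrain were 2 ephrin-B ligands, an ephrin-A ligand and 2 EphA receptors. Epha3 was 4.89-fold lower, at -0.60 in midbrain, against 1.66 in ventral telencephalon, 1.24 in hippocampus and 2.18 in cortex. Efnb2 was 4.66-fold lower, at 1.57 in midbrain, against 3.95, 3.05 and 4.37 in those tissues. Efna4 was 3.51-fold lower, at -1.90 in midbrain, against -1.16, 0.51 and 0.39. Epha4 was 3.14-fold lower, at 1.03, against 2.31, 3.59 and 2.12, and Efnb1 2.48-fold lower, at 2.68, against 3.69, 3.73 and 4.57. In all 5 of these members midbrain was the lowest tissue. Neo1, the netrin receptor neogenin, was past 2-fold only between its extremes, at 1.46 in midbrain, 1.74 in ventral telencephalon, 2.61 in hippocampus and 2.26 in cortex. Ephb4 likewise lay between -1.61 in ventral telencephalon and -0.44 in hippocampus.

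In ventral telencephalon 7 of 33 members were past 2-fold from the mean of hippocampus and cortex (5 higher and 2 lower, against 10.4% of all genes, 6.5% higher and 3.86% lower). Ntn1 was 13.6-fold higher, at 1.39 in ventral telencephalon, against -0.91 in hippocampus and -3.84 in cortex, and it had the same order by its other probe (-3.52, -5.25 and -7.86, the last not well above background). Epha8 was 3.64-fold, Unc5c 3.26-fold and Ntng1 3.22-fold higher, and Epha10 at least 4.07-fold, since hippocampus and cortex were not well above background. Efna4 was 3.06-fold lower, and Ntng2 at least 2.48-fold lower, being not well above background in ventral telencephalon. Ntng2 measured -3.91 in hippocampus, -3.66 in cortex and -4.92 in midbrain.

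**Figure D4:**
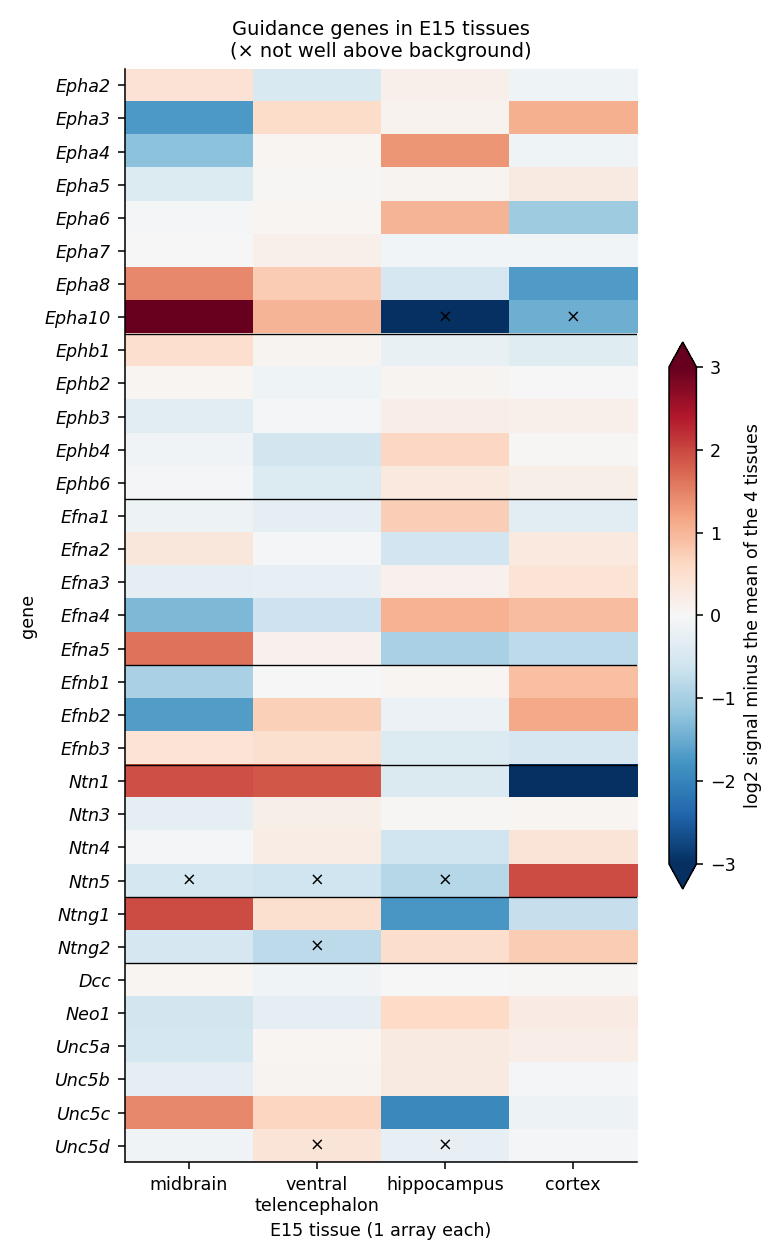
Log2 signal minus the mean of the 4 tissues (colour, with red above and blue below the mean) for 33 members (y axis, with black lines between families) in midbrain, ventral telencephalon, hippocampus and cortex of E15 embryos (x axis, 1 array each); a cross marks a value not well above background. Ntn1 runs between -3.84 in cortex and 1.47 in midbrain on the log2 scale, a 39.7-fold range.

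Hippocampus and cortex are the tissues after which the labels name the CHIR_8-16 and WiBi_0-11 cultures. Past 2-fold were 9 of 33 members (5 higher and 4 lower in hippocampus, against 11% of all genes, 5.93% higher and 5.03% lower). Ntn1 was 7.61-fold higher in hippocampus. Epha6, an EphA receptor, was 4.26-fold higher, at -1.55 in hippocampus and -3.64 in cortex, with -2.51 in ventral telencephalon and -2.61 in midbrain, and Epha4 was 2.77-fold higher, at 3.59 in hippocampus and 2.12 in cortex. Efna1 was 2.05-fold higher, at -0.26 in hippocampus and -1.29 in cortex, with -1.26 in ventral telencephalon and -1.13 in midbrain. Epha8 was the remaining higher member (2.29-fold). Lower in hippocampus were Unc5c (3.42-fold), Efnb2 (2.51-fold), Ntng1 (2.05-fold) and Ntn5, the last at least 2.23-fold because it was well above background only in cortex.

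Dcc was flat between hippocampus and cortex by its repeat probe (log2 -0.03) but higher in hippocampus by the probes on chromosome 18. By A_55_P2021744 it was -0.53 in hippocampus, against -2.07 in cortex, -1.90 in ventral telencephalon and -2.11 in midbrain, or 2.91-fold over cortex. By A_65_P07978 it was -3.0 in hippocampus, against -4.51, -4.03 and -4.76 in those tissues, or 2.85-fold over cortex. The mesenchyme markers had a summed level of 19.89 in hippocampus and 4.255 in cortex, and their part in these differences was not tested.

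Of the 9 members past 2-fold between hippocampus and cortex 8 were tested in the cultures, and 7 of these had the same sign in CHIR_8-16 over WiBi_0-11, but only 3 had it on both slides. Of the 2041 genes past 2-fold in the tissues and tested in the cultures, 48.9% had the same sign and 33% had it on both slides. Those 3 were Efna1 (log2 1.03 in the tissues and 1.24 in the cultures), Epha4 (1.47 and 0.62) and Epha8 (1.19 and 0.51). Ntn1 had opposite signs, at 2.93 in the tissues and -1.39 in the cultures. Epha6 was 2.09 in the tissues and 0.13 in the cultures. Unc5c, Ntng1 and Efnb2 differed by -0.04, -0.03 and -0.19 in the cultures. By the 2 probes on chromosome 18 Dcc was positive in both, at 1.54 and 1.51 in the tissues and 1.63 and 1.46 in the cultures.

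Levels of the same probe in cultures and tissues were set side by side for 32 members, with the limit that slide and source cannot be told apart, since all tissues lay on slide 1. Cultures lay below all 4 tissues for 5 members (7.18% of all genes) and above them for 2 members (13.9% of all genes). Efna1 was -4.07 to -2.49 in the 8 culture arrays and -1.29 to -0.26 in the tissues. Epha6 was -4.82 to -4.38 in the cultures and -3.64 to -1.55 in the tissues, and Ephb1 2.20 to 2.87 in the cultures and 3.49 to 4.35 in the tissues. Epha4 and Unc5a were the other members below, by gaps of 0.19 and 0.21. Above the tissues were Epha7 by its brightest probe and the Dcc repeat probe.

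The effectors and partners of these genes, inside the cell or at its surface, were given by 2 lists. Of 27 effectors of Eph and ephrin signalling (exchange factors, adaptors and kinases) 27 were tested. In the 5 comparisons of culture groups 0 were called, with and without the block (limma, against at most 3.21% of all genes). In CHIR_8-16 over WiBi_0-11 their median log2 difference was -0.05, and the larger differences of the same sign on both slides were those of Vav3, an exchange factor (1.45, limma adjusted p = 0.145 with the block), the kinase Src (1.40, 0.0979), Ngef, the exchange factor ephexin-1 (-1.21, 0.122), and Chn1, alpha-chimaerin (-0.51, 0.126). Of 22 partners of netrins and their receptors 22 were tested and 0 were called in the same comparisons. Their median was -0.18 in CHIR_8-16 over WiBi_0-11 (16 of 22 negative) and -0.12 with the agonist (16 of 22 negative), with Flrt3, a membrane protein that binds Unc5 receptors, at 0.68 and 0.51. Next in CHIR_8-16 over WiBi_0-11 came Lrrc4, the netrin-G2 receptor NGL-2 (-0.59), Draxin, a secreted ligand of Dcc (0.52), and the actin-binding Ablim1 (-0.47).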

How the data were processed

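Scanner files of 12 single-colour Agilent arrays were used. Per the file headers they hold processed intensity from Feature Extraction 10.7.3.1, with background already subtracted, on mm9 probe positions, and the submitters' processing notes name limma. The deposited table of log2 values, centring unstated, served as an alternative (r between 0.9889 and 0.9939 with the array of each column). Groups came from the sample titles. Spots with outlier marks were dropped, spots of a probe averaged, log2 intensity set against the 75th percentile of each array, and probes kept if well above background on both arrays of a culture group. The brightest passing probe stood for a gene, and limma 3.58.1 (R 4.3.3) was fitted over the 8 culture arrays with Benjamini-Hochberg adjustment, after tests on simulated data. "At least" folds set a dim group at the lowest signal well above background.

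Samples with the same replicate number share a slide, and their deviations from the group means correlated (r between 0.5785 and 0.6675), so the blocked fit is given. Alternatives were other scalings, normexp (on median signals, since the culture files hold no mean signals) with quantile normalization, no dim filter, other probe summaries, a trended prior, only the groups compared, and each array left out. Members called, or past 2-fold with 1 sign on both slides, were described by array, as were members past 2-fold between tissues. Members and lists were chosen with earlier results of these data known.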

Additional observations from a re-analysis of the deposited data

Results flagged for a closer look

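Within the 4 agonist and the 4 inhibitor-only arrays, 66 sets of 4 values were searched for an array far from the other 3 (Dixon's ratio above its 95% critical value, which chance gives in about 1 of 20 sets), and 2 were found, both CHIR_8-16 replicate 2 among the agonist arrays. Efnb2, the ligand of Ephb4, measured 3.25 there and 3.79 to 3.83 on the other 3 arrays (ratio 0.919). Ephb6 measured 2.52 there and 2.25 to 2.28 on the other 3 (ratio 0.879).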

How the results depend on the processing

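The 4 comparisons between pairs of culture groups had 0 members called under all 18 alternatives run for each, and the F test under all 17. The comparison of agonist with inhibitor-only cultures did depend on the processing. With 0 members called in the fit without the block, the trended prior gave 1, and the pairing of replicates by slide (block) gave 2. The block gave 2 with quantile normalization, 2 with normexp and quantile normalization, 2 with the mean of probes, 1 on the deposited table, 5 with the trended prior, and 0 with median scaling, without the dim filter, over every probe or with any 1 array left out. The block changed no other call. Over its alternatives Efna1 ranged between 0.52 and 1.21 (limma adjusted p between 0.0252 and 0.254) and Epha3 between 0.53 and 0.65 (0.017 to 0.458), with no change of sign. The 14 members called between slides were 6 to 8 without any 1 array and 12 to 16 otherwise. At 4-fold in place of 2-fold the E15 counts were 3, 2 and 6 in hippocampus over cortex, ventral telencephalon over pallium and midbrain over telencephalon. The median of the members in CHIR_8-16 over WiBi_0-11 (0.13) was -0.00057 with median scaling, 0.0274 with quantile normalization, 0.0668 with normexp and 0.10 to 0.24 without any 1 array. In CHIR_8-16 over CHIR_11-16 it was -0.07 with median scaling, -0.0029 with normexp, 0.0030 on the deposited table, -0.0807 with the mean of probes and -0.0288 to 0.0269 without any 1 array. In WiBi_0-16 over WiBi_0-11 it was -0.10 with median scaling, and with the agonist -0.0282 to 0.0641 without any 1 array. Dcc in CHIR_11-16 over WiBi_0-11 (-0.08 by the repeat probe) was 0.34 and 0.31 by the probes on chromosome 18. In CHIR_8-16 over WiBi_0-11 Ntn1 ranged between -1.98 and -0.81 and Efna1 between 0.57 and 1.52. The causes were not tested. A fit to only the groups compared was not run for the agonist comparison, which uses all groups. Signal over background limits Unc5d, Ntn5, Epha1, Epha10 in the telencephalon and the other Ntn1 probe.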
